A study of Mus musculus with 30 samples.

Results

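The nuclear genes of respiratory complex I were followed across 30 ribosome-bound RNA libraries from the nucleus accumbens of female mice. Members were the protein-coding genes whose symbol begins with Nduf followed by a, b, c, s or v and a digit, after the Ensembl identifiers of the deposited count table were matched to GENCODE mouse M21. The rule found 37 genes of 55335 in the table. Of these, 35 encode subunits of complex I. The other two, Ndufa4 and Ndufa4l2, carry the family name but are placed outside the complex in current descriptions.

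The libraries were made by RiboTag, in which Cre recombinase switches on an epitope-tagged ribosomal protein so that ribosomes of 1 cell class can be precipitated with their RNA. D1-Cre-RT mice were used for D1-type medium spiny neurons and A2A-Cre-RT mice for D2-type medium spiny neurons, so that cell class and mouse line cannot be told apart. Each line gave 3 groups, named Control, Resilient and Susceptible in the labels. Females that went through chronic witness defeat stress were sorted by social interaction score into Resilient and Susceptible. The titles of the Control libraries do not name this stress. There were 5 libraries in each of the 6 groups, each pooled from 4 mice with similar scores and taken the day after the social interaction test; ages were not given. The labels call the libraries biological replicates and give no litter or day for a replicate number. Because these are bulk precipitates, fewer cells of a type and less RNA per cell cannot be told apart.

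Complex I oxidises NADH in the mitochondrial matrix, passes the electrons along iron-sulfur clusters to ubiquinone and pumps protons across the inner membrane. Its matrix arm holds the nuclear-encoded core subunits that carry out the redox chemistry, and the core of its membrane arm is encoded by mitochondrial DNA. Around both arms sit accessory subunits, all of nuclear origin, which are needed for assembly and stability. Neurons depend heavily on oxidative phosphorylation, and inherited defects of these genes cause Leigh syndrome, in which the basal ganglia are often affected.

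Gene counts per library ranged from 28996168 to 65882152, with a median of 53006937. The D1 Susceptible replicate 1 library stood apart, since 54.9% of its gene counts fell on Gm42418, a gene model that overlaps ribosomal RNA sequence, against a median of 0.527%. D2 Susceptible replicates 1 and 2 also stood apart in the levels of many members given below, and the first of them had the fewest detected genes, 15822 against a median of 21135. The summed D2 markers (Drd2, Adora2a, Penk, Gpr6 and Sp9) lay between 1120 and 2771 CPM (counts scaled to library size, here with TMM factors) in D1 libraries and between 4867 and 12800 CPM in D2 libraries. For the D1 markers (Drd1, Pdyn, Tac1, Isl1 and Eya1) the sums were 1554 to 2351 CPM in D1 libraries and 242 to 1673 CPM in D2 libraries. The highest D2 value, in D2 Resilient replicate 5, lay inside the D1 range, and that library also had the lowest sum of D2 markers. Epidermal keratins set D2 Susceptible replicates 1 and 2 apart as well: Krt10 was at 166.5 and 284 CPM there and at 16.6 to 37.0 CPM in the other 28 libraries, and Krt5 was at 7.52 and 21.1 CPM there and at most 0.0728 CPM elsewhere.

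The genes lay on 14 autosomes and on X, where Ndufa1 and Ndufb11 are found. Promoter sequences of RefSeq (GRCm38.p6, 250 bases before to 50 bases after each start) were found for 32 of the 37. These were searched on both strands for short motifs of factors known for respiratory genes. The YY1 motif AAGATGGCG was present in 5 of 32 members (15.6%), against 1.64% of all gene symbols with such a window. CGCATGCGC, the motif of the factor NRF1, was found in 2 members (6.25%, against 1.95%). CCGGAAG, bound by ETS factors such as GABP, was found in 4 (12.5%, against 9.93%). TCAAGGTCA, the motif of ERR alpha, was found in 0 members, against 0.466% of symbols. Unlike the members, the symbols used for these shares were not limited to protein-coding genes. The stretches with the YY1 and NRF1 motifs are shown because they are sequence features that the choice of members did not use; the match is in capitals, each reads 5′ to 3′ on the strand of the gene, and a match is a description and not a bound site.

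Ndufa9: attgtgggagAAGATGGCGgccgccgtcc
Ndufc1: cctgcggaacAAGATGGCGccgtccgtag
Ndufs4: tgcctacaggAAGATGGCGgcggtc
Ndufs6: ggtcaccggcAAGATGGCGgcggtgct
Ndufs7: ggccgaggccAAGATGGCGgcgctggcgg
Ndufa8: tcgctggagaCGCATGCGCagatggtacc
Ndufa11: ctgcactgcgCGCATGCGCgcacgccttg

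In that order the stretches lie at chr6:126849097-126849125 (minus strand), chr3:51408915-51408943 (minus), chr13:114388045-114388069 (minus), chr13:73328433-73328459 (minus), chr10:80249463-80249491 (plus), chr2:36049329-36049357 (minus) and chr17:56717693-56717721 (plus). All 5 YY1 matches began between 22 and 35 bases after the listed start, on the strand of the gene. The motif contains the letters ATG, and whether the matches lie on start codons was not tested. The NRF1 matches began 9 bases before the start in Ndufa8 and 59 bases before it in Ndufa11. Among the 5 genes with the YY1 motif, the Control difference between D1 and D2 libraries described below was -0.40 for Ndufs6, which passed the test. It was -0.36 for Ndufs7, -0.25 for Ndufc1, -0.25 for Ndufs4 and 0.09 for Ndufa9, which did not.

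Levels of different genes were compared per kilobase of exon. The highest per-length level belonged to Ndufa4, with a mean of 245 CPM per kb (SD 45.5 over 30 libraries). Among subunits the highest were Ndufb3 at 213 CPM per kb (SD 39.5), Ndufa1 at 206 (SD 43.5) and Ndufc2 at 198 (SD 20.5), and these 3 did not differ beyond their spread. The order depends on the length used: per kilobase of principal transcript, Ndufa4 was still highest at 555 (SD 103), followed by Ndufb10 at 319 (SD 58.8), Ndufc2 at 219 (SD 22.6) and Ndufb3 at 213. Most other subunits lay between 15.03 CPM per kb (Ndufv3) and 192 CPM per kb (Ndufb10). Ndufb2 and Ndufs3 stood far below. Ndufb2, a small membrane subunit, had only 1.98 CPM per kb (SD 0.402), and Ndufs3, a core subunit that sits near the ubiquinone site, was close to 0 throughout.

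Ndufs3 had 0 counts in 21 of 30 libraries, 59 counts in D1 Resilient replicate 5 and at most 4 in every other library, so it did not pass the low-count filter and was not tested. Its overlapping neighbour on the opposite strand, Kbtbd4, had 0 counts in 29 of 30 libraries. The cause of these near-empty rows was not tested, and they give no level for Ndufs3. In all, 36 of the 37 members passed the filter, and 16 members have exons that overlap another gene, for which the strand setting of the counting is not given in the sources used here.

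**Figure D1:**
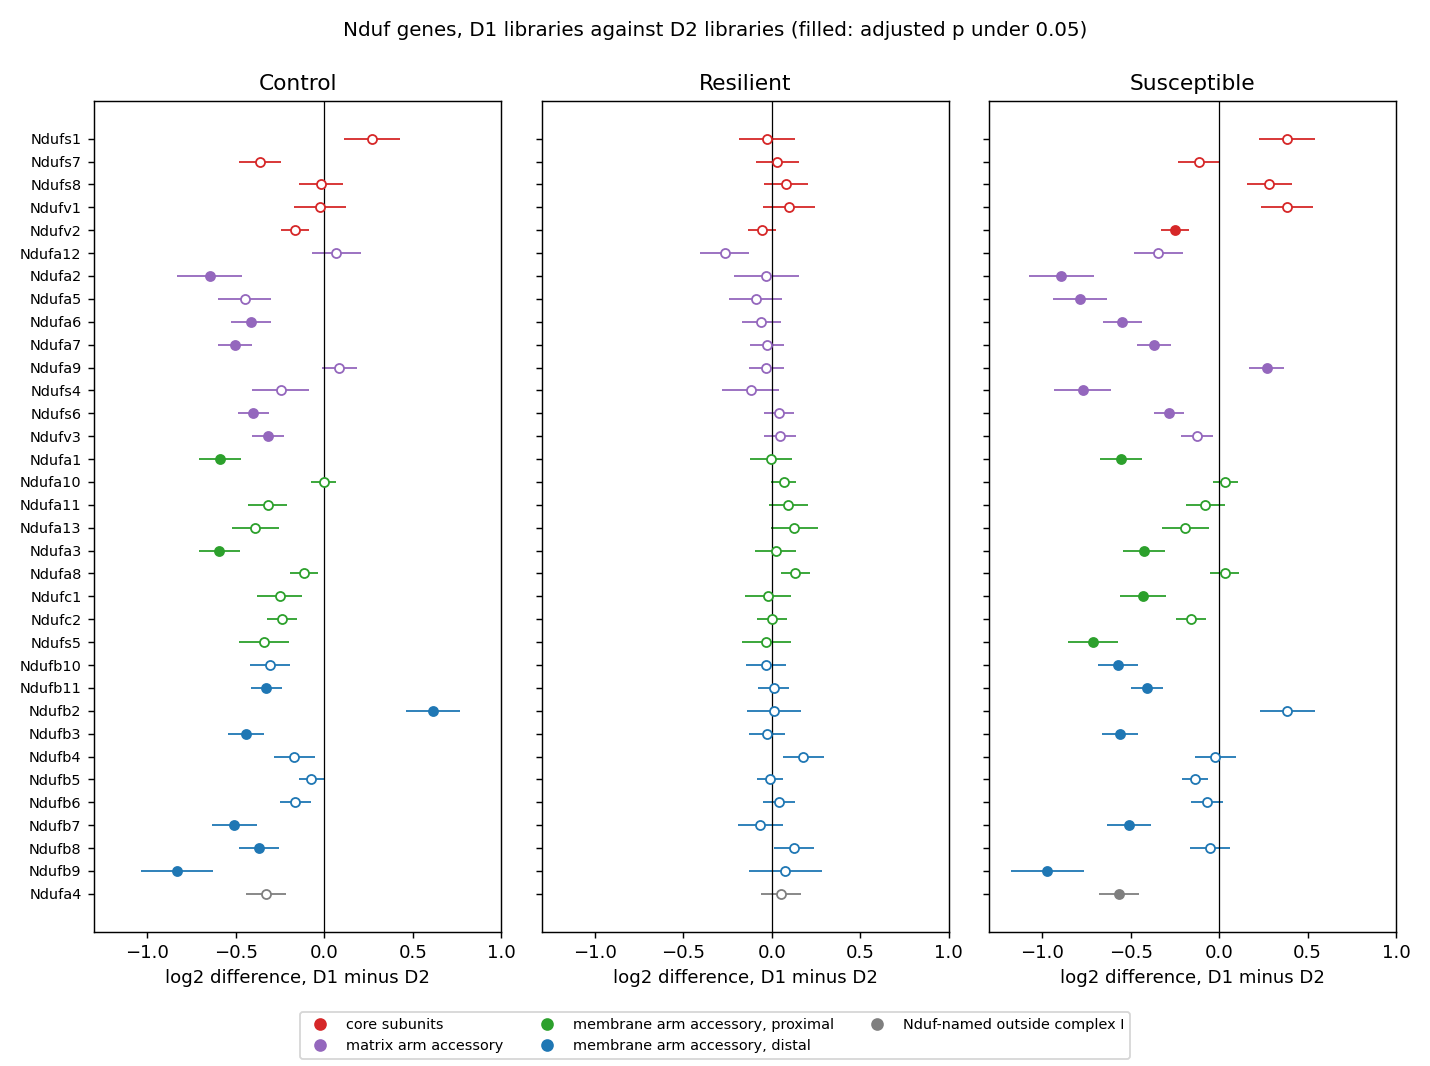
Here 34 of the 36 tested members are drawn, with the log2 difference between D1 and D2 libraries on the horizontal axis (bars, 1 SE; 5 libraries in each group) and structural groups in colour. Filled points passed an adjusted p of 0.05; Ndufa4l2 is off the scale. In Control 32 of the 36 members are below 0, in Resilient 17, and in Susceptible 28.

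In Control animals 12 of 28 accessory subunits were lower in D1 than in D2 libraries and 1 was higher. By edgeR with all libraries, 0 of 6 core subunits were called, and accessory against core was not tested. With the length trend described below taken out, Ndufb9 and Ndufv3 were the 2 subunits still called lower. By edgeR's quasi-likelihood test with Benjamini-Hochberg adjustment over 19368 genes, 13 of 36 members were lower in D1 and 1, Ndufb2, was higher. Of all genes tested, 4.8% were lower and 3.51% were higher. The median log2 difference of the members, D1 minus D2, was -0.32, against -0.0028 for all genes, and 32 of the 36 were below 0. For 18 of the members tested, all 5 D1 Control libraries lay below all 5 D2 Control libraries, which was so for 6.05% of all genes.

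Among the core subunits 0 of 6 passed the edgeR test in Control with all libraries. Ndufs7 was called by DESeq2, by voom with quality weights, and by edgeR without D1 Control replicate 1 or 2. Voom also called Ndufs1. These calls were not set against all genes. Ndufv1, which binds the flavin that takes electrons from NADH (ENSMUSG00000037916, chr19:4007384-4012806, minus strand), was at 293, 324, 278, 281 and 269.6 CPM in D1 Control and at 319, 301, 309, 265 and 278 CPM in D2 Control. The groups overlapped fully and the log2 difference was -0.02 (SE 0.15, adjusted p = 0.964, edgeR). Ndufs1, the largest iron-sulfur subunit (ENSMUSG00000025968, chr1:63143596-63176833, minus strand), was at 274, 314, 348, 342 and 328 CPM in D1 and at 295, 285, 297, 201 and 253 CPM in D2. Here the log2 difference was 0.27 (SE 0.16, adjusted p = 0.373, edgeR), with 1 D1 library among the D2 values.

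Ndufs8, another iron-sulfur subunit of the matrix arm, gave a log2 difference of -0.02 (SE 0.12, adjusted p = 0.967). Ndufv2, which carries an iron-sulfur cluster next to Ndufv1, had -0.17 (SE 0.081, adjusted p = 0.248). Its 5 D1 libraries, at 225 to 264 CPM, lay at or below its lowest D2 library, with the closest pair at 263.6 CPM in D1 replicate 3 and 263.6 CPM in D2 replicate 1. Ndufs7, which holds the last cluster before ubiquinone, had the lowest value of the core, -0.36 (SE 0.12, adjusted p = 0.0556). Its D1 libraries split into 112 and 107 CPM in replicates 1 and 2 and 78.5 to 82.1 CPM in the other 3, while D2 libraries ran from 108 to 145 CPM.

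Of the 9 accessory subunits of the matrix arm, 5 were lower in D1 Control libraries: Ndufa2, Ndufa6, Ndufa7, Ndufs6 and Ndufv3. Ndufa7 (ENSMUSG00000041881, chr17:33824572-33838317, plus strand) was at 72.8, 68.2, 56.9, 62.2 and 62.6 CPM in D1 and at 84.4, 84.3, 84.9, 102 and 102 CPM in D2. The groups did not overlap and the log2 difference was -0.50 (SE 0.095, adjusted p = 6.128e-04, edgeR). Ndufs6, a zinc-binding subunit added late in assembly, was at 51.6 to 59.3 CPM in D1 and 68.6 to 81.6 CPM in D2, and the classes differed by -0.40 (SE 0.086, adjusted p = 0.00236). Ndufa2, a subunit with a thioredoxin-like fold, had -0.65 (SE 0.18, adjusted p = 0.0242), and Ndufv3, which joins the NADH-binding end, had -0.32 (SE 0.090, adjusted p = 0.0223). Ndufa9 (0.09, SE 0.099) and Ndufs4 (-0.25), whose loss in mice gives a Leigh-like disease, did not pass.

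Of the 9 accessory subunits near the base of the membrane arm, all had negative values in Control and 2 passed, Ndufa1 and Ndufa3. Ndufa1, a short X-linked membrane subunit (ENSMUSG00000016427, chrX:37187588-37191163, minus strand), was at 75.1, 71.8, 65.8, 61.0 and 70.1 CPM in D1 Control. In D2 Control it was at 88.8, 103.5, 108, 140.0 and 76.98 CPM. The 2 sets did not overlap, and the log2 difference was -0.59 (SE 0.12, adjusted p = 0.00115, edgeR). Ndufa3, another small single-pass subunit (ENSMUSG00000035674, chr7:3617373-3620327, plus strand), was at 70.6, 66.0, 61.6, 57.3 and 65.2 CPM in D1 and at 93.9, 95.2, 99.2, 118 and 78.1 CPM in D2. Its log2 difference was -0.59 (SE 0.12, adjusted p = 8.508e-04, edgeR). Ndufa10, a kinase-like accessory subunit, was the most even member, with a log2 difference of -0.0034 and a within-group SD of 0.0955 on the log2 scale.

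Of the 10 subunits of the distal membrane arm, Ndufb3, Ndufb7, Ndufb8, Ndufb9 and Ndufb11 were lower in D1 Control. Ndufb9, a protein of the LYR family that binds the acyl carrier subunit (ENSMUSG00000022354, chr15:58933756-58939488, plus strand), was at 29.7, 26.3, 24.4, 24.4 and 26.8 CPM in D1 Control and at 36.6, 42.2, 39.7, 53.0 and 63.0 CPM in D2 Control. D1 was below D2 without overlap, by -0.83 (SE 0.21, adjusted p = 0.00858, edgeR), the lowest value of any subunit there. Ndufb9 was also the most variable subunit, with a within-group SD of 0.345. Ndufb2 went the other way, at 13.1 to 15.1 CPM in D1 Control against 7.24 to 10.6 CPM in D2 Control, a log2 difference of 0.61 (SE 0.15, adjusted p = 0.00973). Reads of Ndufb2 are few, and its exons overlap those of 1 gene model on the same strand and 2 on the opposite one. Those of Ndufb9 overlap 1 same-strand model.

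**Figure D2:**
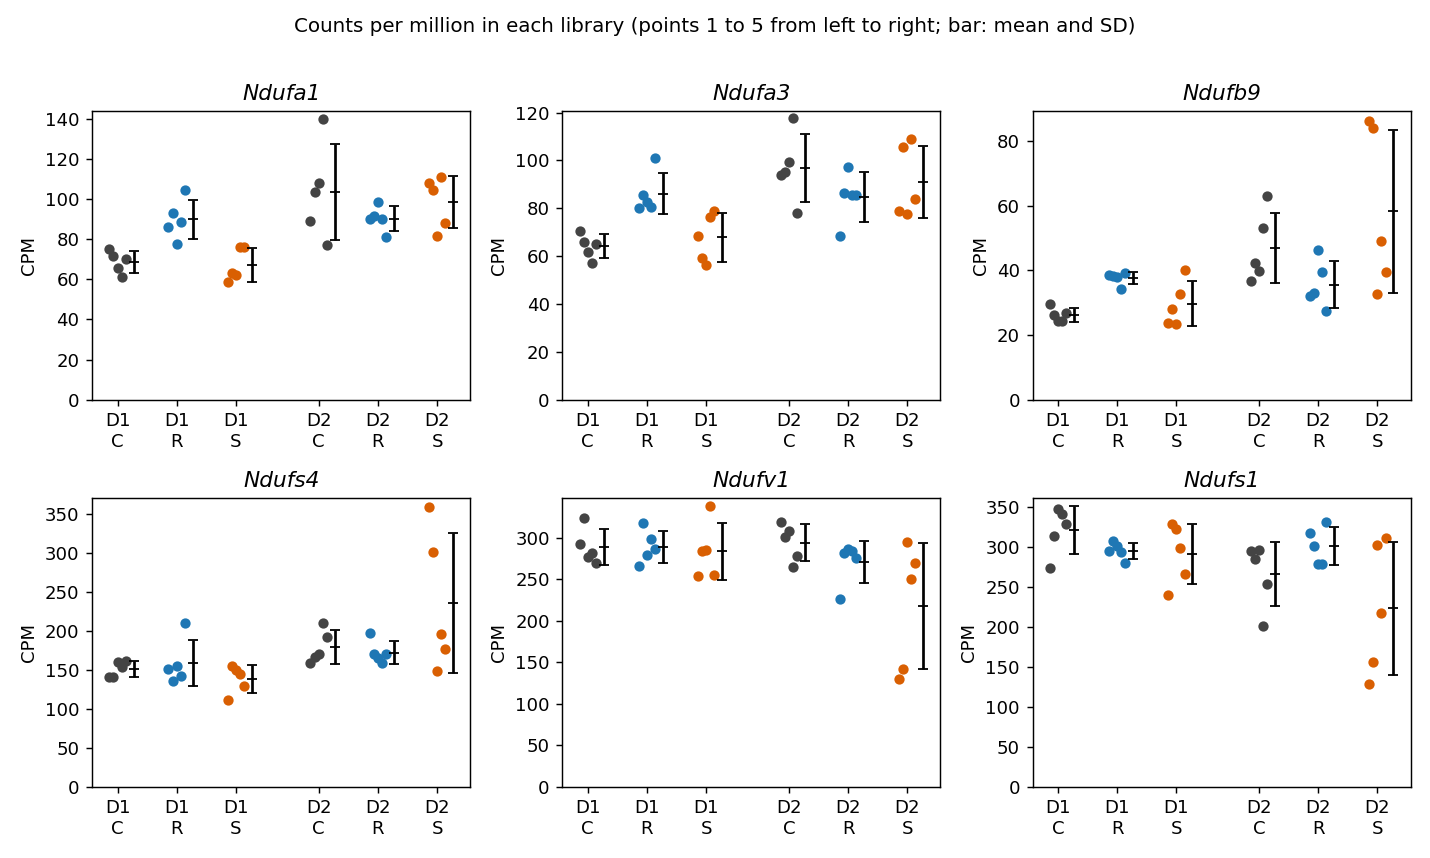
CPM (vertical axis, from 0) of 6 subunits in each of the 30 libraries, grouped as D1 or D2 and Control (C), Resilient (R) or Susceptible (S), with the mean and SD of 5 libraries beside each group. Ndufa1, Ndufa3 and Ndufb9 are lower in D1 C than in D2 C without overlap, whereas Ndufv1 overlaps; in D2 S the first pair of points is high for Ndufs4 and Ndufb9 and low for Ndufv1 and Ndufs1.

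The count in Control rested in part on single libraries. It was 9 when D1 Control replicate 3 was left out, 9 when D1 Control replicate 4 was, and 8 when D2 Control replicate 4 was, and all of those were among the 14. Calls over all genes fell too, from 8.3% to 4.95%, 5.63% and 5.34%. Without D2 Control replicate 5, the D2 Control library with the most D1 marker RNA, the count was 13 (8.69% of all genes).

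In Resilient animals the subunits were nearly level between the classes. Of 36 members, 1 was lower in D1 (3.9% of all genes) and 0 were higher (2.75% of all genes), and that 1 was Ndufa4l2, which is outside the complex. At an unadjusted p under 0.05 the count was also 1. The median log2 difference was 0.0058, with 19 members above 0 and 17 below. The lowest subunit was Ndufa12 at -0.27 (SE 0.14, adjusted p = 0.369, edgeR) and the highest Ndufb4 at 0.18 (SE 0.12, adjusted p = 0.576). Ndufa1, for example, was at 86.1, 92.9, 77.5, 88.4 and 104.5 CPM in D1 Resilient and at 90.0, 91.5, 98.4, 90.0 and 81.1 CPM in D2 Resilient, so that the sets overlapped. All 5 D1 libraries lay below all 5 D2 libraries for 1 member tested, Ndufa4l2, against 5.01% of all genes. Without D2 Resilient replicate 5 the call was still Ndufa4l2 alone (4.09% of all genes lower) and the median was 0.011.

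In Susceptible animals 18 members were lower in D1, where 13.4% of all genes were lower, and 1, Ndufa9, was higher, where 10.5% were. The median log2 difference was -0.27, against 0.017 for all genes. Those lower were 6 matrix arm accessory, 4 proximal and 5 distal subunits, 1 core subunit (Ndufv2, -0.25, SE 0.081, adjusted p = 0.0254, edgeR), Ndufa4 and Ndufa4l2. Ndufb3, a small membrane subunit, was at 133, 130.2, 131, 131 and 136 CPM in D1 Susceptible and at 222, 244, 147, 198 and 166 CPM in D2 Susceptible. The D1 values were all below the D2 values, and the log2 difference was -0.56 (SE 0.10, adjusted p = 2.271e-04, edgeR). Ndufa5 followed with -0.79 (SE 0.15, adjusted p = 4.079e-04). For 8 members the 5 D1 libraries were all below the 5 D2 libraries, against 4.12% of all genes.

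Of the 13 members lower in D1 in Control and the 18 lower in Susceptible, 11 were on both lists, which is 84.6% of the first and 61.1% of the second. Of all genes tested, 4.8% were lower in Control and 13.4% in Susceptible, and the overlap over all genes was not worked out. These comparisons share no library, but they share the mouse lines, the fitted model and the length trend described below. The 11 members were Ndufa1, Ndufa2, Ndufa3, Ndufa4l2, Ndufa6, Ndufa7, Ndufb3, Ndufb7, Ndufb9, Ndufb11 and Ndufs6.

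The Susceptible count leaned on the 2 libraries with epidermal keratins, whose part in it was not tested. In D2 Susceptible replicates 1 and 2, Ndufv1 was at 130 and 142 CPM against 251 to 296 CPM in replicates 3 to 5, and Ndufs1 was at 128 and 156 CPM against 218 to 312 CPM. Ndufs8 (60.4 and 52.6 CPM) and Ndufa9 (148 and 129 CPM) were low in the same pair of libraries, whereas Ndufs4 (359 and 301 CPM), Ndufs5 (229 and 259 CPM), Ndufa2 (162 and 171 CPM) and Ndufb9 (86.2 and 83.8 CPM) were high in them. Without this pair of libraries 9 members were lower in D1 (4.89% of all genes) and 0 higher. Without D1 Susceptible replicates 1 and 5 as well, 5 were lower (4.93% of all genes): Ndufa1, Ndufa3, Ndufa4l2, Ndufa7 and Ndufb3. When only the 10 Susceptible libraries were fitted, 7 were lower (3.2% of all genes).

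Whether the class difference itself changed with stress was tested as an interaction, the D1 change minus the D2 change. From Control to Resilient the median of the members was 0.32 and 31 of 36 were above 0, but 0 members passed the adjusted threshold (0% of all genes). At an unadjusted p under 0.05 there were 19 members, against 4.99% of all genes. The smallest adjusted p were those of Ndufa3 (0.62, SE 0.16, adjusted p = 0.621, edgeR) and Ndufs6 (0.44, SE 0.12, adjusted p = 0.621). Limma's voom with library quality weights called 7 members positive, where it called 0.873% of all genes: Ndufa1, Ndufa3, Ndufa7, Ndufb8, Ndufb9, Ndufs6 and Ndufv3. With the length trend removed, the median was 0.07, 26 of 36 were above 0 and 6 were at an unadjusted p under 0.05 (4.48% of all genes), and without D1 Resilient replicate 5 the median was 0.22. The difference between Control and Resilient in the size of the class difference was therefore not shown by the edgeR test.

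From Control to Susceptible the interaction called 0 members (0% of all genes), with 2 at an unadjusted p under 0.05 against 7.79% of all genes, and a median of 0.04. From Resilient to Susceptible it also called 0 (0% of all genes), with 17 at an unadjusted p under 0.05 against 12.4% of all genes, and 30 of 36 below 0. Ndufb9 had the lowest value there, -1.05 (SE 0.29, adjusted p = 0.22, edgeR). Without D2 Susceptible replicate 3 this interaction called 7 members, all negative, and 0.789% of all genes. With the length trend removed its median over the members went from -0.26 to -0.06.

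Within D1 neurons stress groups were not separated by the adjusted test. Resilient minus Control called 0 members (0% of all genes), with 10 at an unadjusted p under 0.05 against 2.6% of all genes. The median was 0.11 and 30 of 36 members were above 0. Without D1 Resilient replicate 5, the highest of its group for 8 members by a wide gap, the median was 0.03 with 22 above 0, and with the length trend removed it was 0.02 with 21 above 0. Ndufa3 was at 80.3, 85.6, 82.5, 80.7 and 100.8 CPM in D1 Resilient, above all 5 D1 Control libraries, with a log2 difference of 0.42 (SE 0.12, unadjusted p = 9.637e-04 and adjusted p = 1, edgeR). Ndufb9 was at 38.5, 38.1, 37.9, 34.2 and 39.2 CPM, again above every D1 Control library, with 0.51 (SE 0.20, adjusted p = 1). Voom with quality weights called 7 members, where it called 0.893% of all genes: Ndufa1, Ndufa3, Ndufb8, Ndufb9, Ndufs6 and Ndufv3 higher and Ndufb2 lower. When only these 2 groups were fitted, edgeR called Ndufb9 alone among the members (0.0764% of all genes). Glial markers had lower values in the same comparison: all 6 astrocyte markers were below 0 (median -0.91, 5 at an unadjusted p under 0.05), as were all 6 of oligodendrocytes (median -0.51, 5) and all 6 of microglia (median -0.54, 1), with 0 passing the adjusted threshold. Their part in the subunit values was not tested.

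D1 Susceptible minus Resilient called 0 members (0% of all genes), with 11 at an unadjusted p under 0.05 against 3.49% of all genes, and 33 of 36 were below 0. The median was -0.14; it was -0.08 without D1 Resilient replicate 5 and -0.01, with 19 below 0, when the length trend was removed. Mural markers had a median of 1.14 there (4 of 5 above 0), endothelial markers 0.62 (5 of 5) and astrocyte markers 0.71 (6 of 6), with 3, 3 and 2 at an unadjusted p under 0.05; their part was not tested. Ndufa1, at 58.4, 63.2, 62.1, 76.0 and 76.0 CPM in D1 Susceptible, lay below every D1 Resilient library, with a log2 difference of -0.42 (SE 0.12, adjusted p = 0.671, edgeR). Voom with quality weights called Ndufa1, Ndufa3 and Ndufb8 lower, where it called 0.0774% of all genes. D1 Susceptible minus Control called 0 members (0% of all genes) and 0 at an unadjusted p under 0.05 as well, against 2.4% of all genes; the median was -0.04 and the values ran from -0.32 to 0.17. The D1 comparisons share groups, so their directions are not independent.

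**Figure D3:**
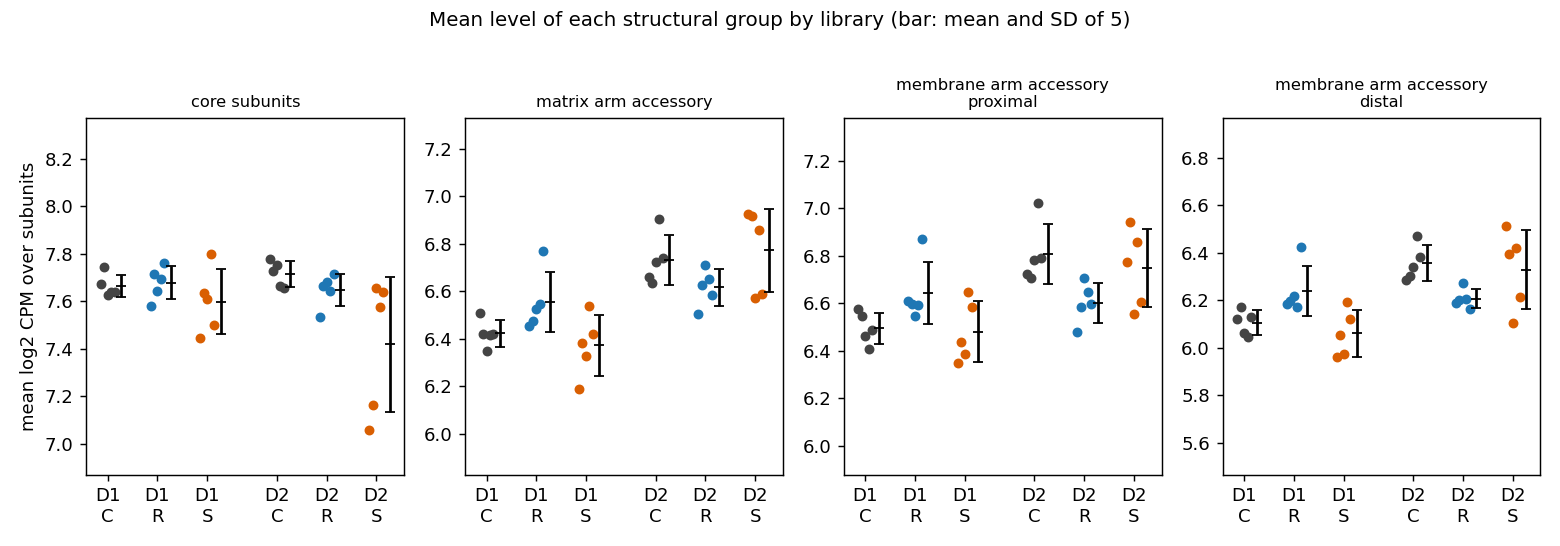
Mean log2 CPM over the subunits of each structural group (vertical axis, 1.5 log2 units in each panel) in every library, with the mean and SD of 5 libraries beside each group. For the 3 accessory groups the mean of D1 C is below that of D2 C, and for the core subunits the first pair of D2 S libraries, at 7.06 and 7.16, is far below the rest.

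Within D2 neurons Resilient minus Control called 0 members (0% of all genes), with 9 at an unadjusted p under 0.05 against 4.2% of all genes, a median of -0.17 and 33 of 36 below 0. With the length trend removed the median was -0.03, 25 were below 0 and 2 were at an unadjusted p under 0.05 (3.87% of all genes). Ndufa12 was the highest, at 96.4, 95.3 and 93.7 CPM in D2 Resilient replicates 2 to 4, somewhat higher in replicate 1 and 85.8 CPM in replicate 5, against 53.3 to 86.6 CPM in D2 Control, a log2 difference of 0.38 (SE 0.14, adjusted p = 0.9999, edgeR). D2 Susceptible minus Control called 0 members, where 0.00516% of all genes were called, and 8 at an unadjusted p under 0.05 against 15.7% of all genes. The core subunits had a median of -0.26 there and the matrix arm accessory subunits 0.14. Markers of D1 neurons (median -1.01, 5 of 5 below 0) and of interneurons (-0.61, 5 of 6) were low in the same comparison, each with 3 at an unadjusted p under 0.05, and their part was not tested. Ndufv1 was lowest (-0.43, SE 0.15, adjusted p = 0.186, edgeR) and Ndufs4 highest (0.40, SE 0.16, adjusted p = 0.236), and both rested on D2 Susceptible replicates 1 and 2. Without D2 Susceptible replicate 3, 4 members and 4.19% of all genes were called.

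D2 Susceptible minus Resilient called 0 members, where 0.0516% of all genes were called, and 16 at an unadjusted p under 0.05 against 19.1% of all genes. Closest were Ndufs5, a twin-cysteine subunit of the intermembrane face (0.54, SE 0.14, adjusted p = 0.066, edgeR), and Ndufb9 (0.71, SE 0.20, adjusted p = 0.0797). DESeq2 called 5 members higher, where it called 5.05% of all genes: Ndufa2, Ndufa5, Ndufa6, Ndufb9 and Ndufs5. Leaving out D2 Susceptible replicate 3 gave 15 calls (9.93% of all genes) and leaving out replicate 5 gave 11 (8.11% of all genes), whereas leaving out replicates 1 and 2 together gave 0.

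Members differ from most genes in length, and the class differences moved with it. The principal transcripts of the 34 tested subunits had a median of 891 nt, against 3026 nt over 14959 tested genes, and 23 of the 34 were at most 1200 nt. Core subunits had a median of 1642 nt and accessory subunits 747 nt. In Control, all genes with transcripts up to 800 nt had a median log2 difference of -0.31, D1 minus D2, and 20.1% of them were lower in D1. Over 6000 nt the median was 0.08 and 3.66% were lower. The 15 subunits up to 800 nt had a median of -0.41, and 10 of them were lower.

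Across the 34 subunits, which are not independent replicates and share their libraries, Spearman's rho of the Control difference with length was 0.75, against 0.20 over all genes. In Resilient the values were 0.011 and 0.043, and the short genes had a median of -0.03. In Susceptible they were 0.49 and 0.11. By library, the trend of short (700 nt) against long (5000 nt) transcripts ran from -0.23 to -0.08 log2 units in D1 Control and from 0.06 to 0.47 in D2 Control, without overlap.

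With each library's length trend taken out, 3 members were lower in D1 Control (4.48% of all genes), namely Ndufa4l2, Ndufb9 and Ndufv3, and Ndufb2 was still higher. The median of the members became -0.09. In Resilient Ndufa4l2 was again the only call (4.46% of all genes lower). In Susceptible 12 members were lower (14.8% of all genes) and 5 higher (9.33% of all genes), the median became -0.07, and Ndufs6 turned from -0.28 to 0.048. When the trend was instead drawn through all genes, without the level filter, 22 members were lower in Susceptible (20.3% of all genes) with a median of -0.44, so the 2 corrections moved that comparison in opposite directions. A length term takes out any real difference that is shared by short genes as well, so the share of the class difference that comes from length was not tested further.

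**Figure D4:**
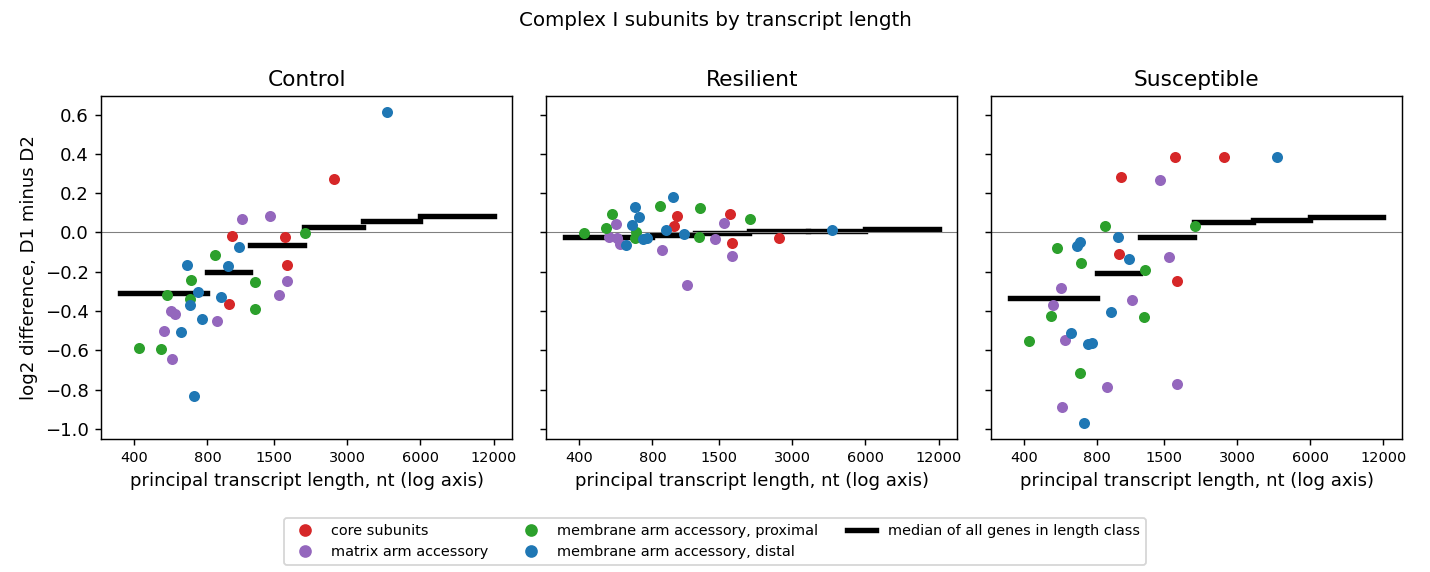
Log2 difference between D1 and D2 libraries (vertical axis) of 33 of the 34 tested subunits against the length of the principal transcript (log axis), by condition. Black lines are medians of all genes in 6 length classes. In Control the medians climb from -0.31 for the shortest class to 0.08 for the longest, and the short accessory subunits lie around or below the line, whereas in Resilient both are near 0.

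Ndufa4 and Ndufa4l2 are paralogues. Ndufa4 is now assigned to cytochrome c oxidase, and Ndufa4l2 is a hypoxia-inducible gene that is also known from pericytes. Ndufa4 was among the most abundant members, at 278 to 319 CPM in D1 Control and 332 to 429 CPM in D2 Control (log2 difference -0.33, SE 0.11, adjusted p = 0.0647, edgeR). In Susceptible it was lower in D1 (-0.57, SE 0.11, adjusted p = 6.223e-04), and in Resilient its value was 0.05.

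Ndufa4l2 (ENSMUSG00000040280, chr10:127514967-127517154, plus strand) was lower in D1 under every condition. In Control it was at 0.74, 0.511, 0.471, 0.24 and 0.146 CPM in D1 and at 3.03, 4.11, 2.07, 3.14 and 3.73 CPM in D2, so that D1 minus D2 was -2.91 log2 units (SE 0.54, adjusted p = 4.562e-04, edgeR). In Resilient the difference was -3.07 (SE 0.55, adjusted p = 2.553e-04) and in Susceptible -3.43 (SE 0.56, adjusted p = 6.115e-05). All 15 D1 libraries lay below all 15 D2 libraries. The D1 values rest on 2 to 47 counts per library. It had the largest within-group SD of the members, 0.80.

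Summed markers of mural cells also separated D1 from D2 libraries. Whether they followed Ndufa4l2 within a class was not tested. The sum of Acta2, Myh11, Rgs5, Pdgfrb and Kcnj8 was 6.66 to 25.5 CPM in D1 libraries and 47.1 to 128 CPM in D2 libraries, and none of the 5 was at 0 in a whole group. In Control 3 of the 5 were lower in D1 (Rgs5 -3.06, Pdgfrb -3.40 and Kcnj8 -4.36), while Acta2 (-2.81) and Myh11 (-0.47) did not pass. The 5 endothelial markers were all lower in D1 Control, with a median of -3.41 and sums of 11.5 to 24.3 CPM against 126 to 263 CPM. Their part in the Ndufa4l2 difference was not tested.

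**Figure D5:**
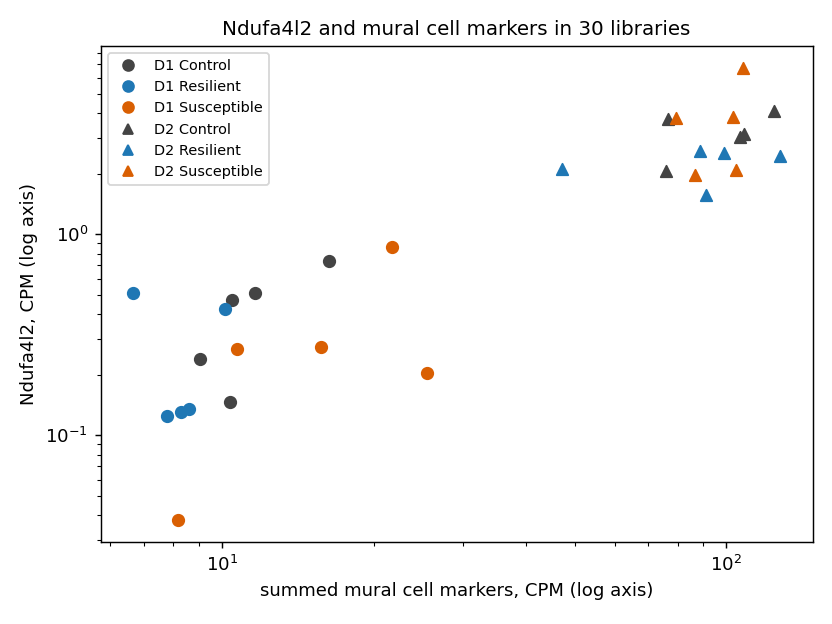
Ndufa4l2 (vertical log axis, CPM) against the summed CPM of 5 mural cell markers (horizontal log axis) in the 30 libraries. The 15 D1 libraries (circles) lie below 1 CPM of Ndufa4l2 and below 26 CPM of the markers, and the 15 D2 libraries (triangles) lie above 1.5 CPM and above 47 CPM.

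Other cell type markers also differed between the classes beside the subunit differences. All 5 markers of glutamatergic neurons were higher in D1 Control (median 1.18, sums of 687 to 925 CPM against 323 to 526 CPM) and 5 of 5 in Susceptible, and in Resilient 4 of 5 were (median 1.15). Of 6 astrocyte markers, 3 were lower in D1 Control, 5 in Resilient and 4 in Susceptible, with sums of 323 to 688 CPM in D1 Control and 407 to 611 CPM in D2 Control. Of 6 oligodendrocyte markers 0, 2 and 4 were lower in D1 in these conditions, and of 6 microglial markers 0, 2 and 0. Of 6 interneuron markers 3, 3 and 4 were higher in D1, and 1, 0 and 1 were lower. In the same order of conditions, 4.8%, 3.9% and 13.4% of all genes were lower in D1, and 3.51%, 2.75% and 10.5% were higher. In Resilient, where the subunits were level, the median differences were -3.42 for mural, -3.60 for endothelial and 1.15 for glutamatergic markers, against -3.06, -3.41 and 1.18 in Control. Astrocyte, oligodendrocyte and microglial markers had medians of -2.13, -0.82 and -1.05 in Resilient, against -1.05, -0.31 and -0.57 in Control. Interneuron markers had 1.13 against 1.00. Krt10, the 1 tested keratin of 3, was lower in D1 Susceptible (-2.19), through the high values of D2 Susceptible replicates 1 and 2 given above. The part of these markers in the subunit differences was not tested.

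Other parts of the respiratory chain showed the same kind of class difference in Control, where 4.8% of all genes were lower in D1. Of 10 nuclear subunits of complex IV, 5 were lower in D1 Control with a median of -0.34, among them Cox5b (-0.46, adjusted p = 5.907e-04, edgeR), Cox7c (-0.60) and Cox6b1 (-0.36). Of 15 subunits of ATP synthase, complex V, 8 were lower, with Atp5k (-0.83, adjusted p = 0.00108), Atp5e (-0.63) and Atp5g2 (-0.45) at the front. Complex III had 2 of 9 lower, Uqcr10 and Uqcr11, and complex II had 1 of 4. In Resilient 0 members of complexes II to V were called, where 3.9% of all genes were lower and 2.75% higher. In Susceptible complex III had 5 lower and 2 higher, complex IV 4 lower, complex V 5 lower and complex II 1 lower. There 13.4% of all genes were lower and 10.5% higher. Some of these genes stood apart in D2 Susceptible replicates 1 and 2. Uqcrh was at 359 and 346 CPM there, against 148 to 242 CPM in replicates 3 to 5. Cyc1 was at 74.3 and 76.5 CPM, against 142 to 161 CPM. Counts for these complexes without that pair of libraries are not given here. Ndufab1, the acyl carrier subunit, was not called in Control (-0.24) and was lower in D1 Susceptible (-0.31, adjusted p = 0.0208, edgeR). It was at 144 and 155 CPM in D2 Susceptible replicates 1 and 2, against 104 to 127 CPM in replicates 3 to 5.

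The mitochondrially encoded subunits of complex I had medians of -0.40 in Control, -0.72 in Resilient and -0.37 in Susceptible, against -0.32, 0.0058 and -0.27 for the nuclear members; the difference between the 2 sets was not tested. Of 7, 1 was lower in D1 Control (mt-Nd1, -0.67, adjusted p = 0.00894, edgeR), 4 in Resilient and 3 in Susceptible. Of all genes, 4.8%, 3.9% and 13.4% were lower in these conditions. The levels of mt-Nd3 and mt-Nd4l were uneven and fell near 0 in single libraries of several groups. In D1 Control replicate 5 mt-Nd3 was at 0.534 CPM, against 122 to 221 CPM in the other D1 Control libraries. There mt-Nd4l was at 0.146 CPM, against 12.5 to 49.8 CPM. In Resilient mt-Nd1 was at -0.77, mt-Nd2 at -0.82 and mt-Nd4 at -0.84. Such transcripts are translated inside mitochondria, whose ribosomes carry no tag.

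Of 18 assembly factors listed, 17 were matched and tested. In Control Acad9 was higher in D1 (0.45, adjusted p = 0.0224, edgeR) and Ndufaf8 lower (-0.60, adjusted p = 0.0327), with a median of -0.0068. Of all genes, 3.51% were higher there and 4.8% lower. D2 Control replicate 4 stood apart for both genes. Ndufaf8 was at 19.6 CPM in it, against 9.23 to 12.05 CPM in the other D2 Control libraries. Acad9 was at 10.2 CPM in it, against 14.2 to 17.9 CPM. In Susceptible Ndufaf2 was lower (-0.62, adjusted p = 0.0118, edgeR), where 13.4% of all genes were. It was at 45.3 and 40.2 CPM in D2 Susceptible replicates 1 and 2, against 18.7 to 28.3 CPM in replicates 3 to 5. In Resilient 0 were called (3.9% of all genes lower and 2.75% higher). Of 8 transcriptional regulators of respiratory genes (Ppargc1a, Ppargc1b, Pprc1, Nrf1, Gabpa, Esrra, Tfam and Yy1) 0 were called in Control and 0 in Resilient. In Susceptible 1 was higher (10.5% of all genes) and 1 lower (13.4% of all genes). Ppargc1b was at 57.2 and 69.35 CPM in D2 Susceptible replicates 1 and 2, against 13.4 to 23.4 CPM in replicates 3 to 5.

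Within groups the subunits moved together only in part. Over deviations from group means in 30 libraries, the mean pairwise correlation of the 34 subunits was 0.20, and 67.6% of pairs were positive. It was 0.51 for complex IV, 0.087 for complex V, 0.037 for complex III and 0.020 for all genes; the libraries, their depth and the length trend are shared by all of these values. Ndufb6 (0.85) and Ndufa8 (0.81) followed the mean of the other subunits most closely. Ndufs1 ran against it (-0.52), and Ndufa9 (-0.26) and Ndufv1 (-0.19) were negative too. These are 3 of the longer subunits, and the low values of D2 Susceptible replicates 1 and 2 belong to the same genes.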

How the data were processed

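The authors deposited raw read counts per gene, in a table of the series and in 1 file for each of the 30 libraries, and the 2 agreed for all 30. Per the submitters' processing notes, HISAT2, HTSeq and the builds GRCm38 and mm10 were named; no version came with them, and neither the annotation release nor whether counting used strand is stated there or in the labels. Identifiers were matched to GENCODE M21, and coordinates are of GRCm38. Rows that name no gene held 10.1% to 53.3% of a library's reads and were left out. Counting error is small at these depths for most members, so replicate spread limits their precision. The biological coefficient of variation over all genes tested was 41.4%. The tested subunits had within-group SDs of 0.0955 (Ndufa10) to 0.345 (Ndufb9) on the log2 scale, and Ndufa4l2 had 0.80.

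Counts were fitted with edgeR 4.0.16 in R 4.3.3 (filterByExpr, TMM factors, robust quasi-likelihood F test, 6 groups in 1 model, 12 contrasts), with Benjamini-Hochberg adjustment over 19368 genes and a threshold of 0.05. The SE is the absolute log2 difference over the square root of F. DESeq2 1.42.0 and limma 3.58.1 (voom with quality weights), other scalings, filters and left-out libraries were alternatives; removal of each library's trend with transcript length (lowess, span 0.3, genes of mean log2 CPM of at least 3) and leaving out libraries that stood apart were added after the data were seen. The edgeR step was tested on simulated data. CPM used TMM library sizes; log2 CPM had a prior count of 2. Drawings used Python 3 with matplotlib. Members that may be named were all of the rule; full statistics were kept for core subunits, Ndufa4, Ndufa4l2, the extremes of level and spread, and up to 3 members in each direction of each comparison, and other examples were chosen after their values were seen. 1 member enters the counts and medians but is not reported here. The members and lists were chosen with earlier results of these data known.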

Additional observations from a re-analysis of the deposited data

Results flagged for a closer look

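In 22 of 210 sets of 5 libraries, 1 for each member examined and group, the highest or lowest library lay apart from the other 4 by more than 0.71 of the whole range on the log2 scale; chance gives about 1 in 20. D1 Resilient replicate 5 gave 8 of them, as the highest library for Ndufa2 (94.1 CPM), Ndufa3 (101 CPM), Ndufa4 (409 CPM), Ndufa6 (104 CPM), Ndufa8 (133 CPM), Ndufb10 (289 CPM), Ndufb3 (192 CPM) and Ndufc2 (174 CPM). D2 Control replicate 4 was highest for Ndufb3 (225 CPM), Ndufb7 (147 CPM) and Ndufs7 (145 CPM). D2 Resilient replicate 1 was lowest for Ndufa11 (67.7 CPM) and Ndufv1 (226 CPM) and highest for Ndufb2 (13.5 CPM).

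The remaining sets came from 8 libraries. The lowest library was D2 Susceptible replicate 1 for Ndufa10 (119 CPM), D2 Resilient replicate 5 for Ndufa12 (85.8 CPM), D1 Resilient replicate 4 for Ndufb9 (34.2 CPM) and D1 Resilient replicate 1 for Ndufs6 (61.8 CPM). The highest was D1 Control replicate 1 for Ndufa6 (86.6 CPM), D1 Control replicate 2 for Ndufb6 (91.4 CPM), D1 Susceptible replicate 4 for Ndufs6 (71.3 CPM) and D2 Susceptible replicate 4 for Ndufv3 (54.7 CPM).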

How the results depend on the processing

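Of the alternative values for counts and levels, 275 stayed within the limits set for them and 19 moved. Counts of 0 that stayed 0 are among the 275. So are co-variation values of 0.162 to 0.238, whose limit, the SD of the pairwise values (0.436), was wide. Of the values for single members and medians, 2160 stayed, 125 moved, 127 lost their call, 51 gained a call and 1 reversed. The class count in Control was 14, with 8.3% of all genes called. With each library's length trend removed it was 4, of which 3 were lower in D1. The share of all genes lower in D1 was 4.48% then, against 4.8% before. It was 2 with the trend of all genes removed, 23 with voom, and 8 to 17 with 1 library left out. At the lowest of these left-out counts, 5.34% of all genes were called. In Susceptible the class count was 19, with 13.4% of all genes lower and 10.5% higher. It was 7 with only the groups compared (3.2% of all genes lower) and 9 without D2 Susceptible replicates 1 and 2 (4.89%). Without 4 Susceptible libraries it was 5 (4.93%), and with 1 library left out 15 to 24. For stress in D1, Resilient minus Control (0) gave 1 with only the groups compared (0.0764% of all genes) and 7 with voom (0.893%). Susceptible minus Resilient (0) gave 3 with voom (0.0774%). In D2, Susceptible minus Control (0) gave 0 to 4 with 1 library left out, with 4.19% of all genes called where 4 members were. D2 Susceptible minus Resilient (0) gave 15 with the trend of all genes removed and 5 with DESeq2 (5.05% of all genes). With 1 library left out it gave 0 to 15, with 9.93% of all genes called at the highest count. The interaction from Control to Resilient gave 7 with voom (0.873% of all genes). That from Resilient to Susceptible gave 0 to 7 with 1 library left out (0.789% of all genes at the highest count). Counts printed here without a share were not set against all genes. Ndufs6 in Susceptible reversed to 0.048 (adjusted p = 0.7, edgeR) with the length trend removed. The cause of these moves was not tested.

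With the replicate number as a block, 13 members were called in Control, 1 in Resilient, 20 in Susceptible and 0 in the other comparisons. These counts were not set against all genes. Same-numbered libraries showed no strong shared shift, since 0 of 75 such pairs correlated over 0.1 (-0.168 to 0.0779). These low correlations cannot settle whether a number marks a shared litter or day. Per kilobase of principal transcript, Ndufa4 was at 555 instead of 245 CPM. With 5 pooled libraries in a group, replicate spread limits what could be called, and for Ndufs3 and for Ndufa4l2 in D1 the low counts do.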
